A study of Phyllostachys violascens with 18 samples.

Results

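Chlorophyll is built in the plastid from protoporphyrin IX, at the point where the tetrapyrrole pathway splits between magnesium, for chlorophyll, and iron, for haem. Magnesium chelatase inserts the magnesium, a methyltransferase and a cyclase close the fifth ring, and protochlorophyllide reductase makes chlorophyllide in the light. Later enzymes reduce a vinyl group, convert part of the pigment to the b form and attach the phytol tail. Genes of this branch are usually most active while a leaf greens, when antenna proteins and photosystems are also being made.

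Described here are 5 bamboo genes of the late part of this route, out of 42520 genes in the deposited table. They are protoporphyrinogen oxidase (PH02Gene42445), magnesium chelatase subunit H (PH02Gene25454), divinyl reductase (PH02Gene10441), chlorophyllide a oxygenase (PH02Gene06841) and chlorophyll synthase (PH02Gene40974). They were chosen from an earlier account of how the variant differed from the typical plant in these libraries, so those differences are given as a description, with no p for a member. Counts of members called between the plants stand there only beside the share of all genes called, and nothing is read from them. All 5 passed the filter on low counts, among 37595 genes tested.

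The bamboo variant Phyllostachys violascens ‘Flavistriatus’ was compared with typical Phyllostachys violascens, both grown in a greenhouse. Each was sampled as young, immature and mature leaves, with 3 libraries for each of the 6 groups and 18 in all. No age in days is given. Since it is not stated whether a group's libraries stand for different plants, p-values here speak of library-to-library spread, part of which can be technical. All 3 pairs of variant immature libraries were among the 5 closest of 18 within-group pairs. A small spread in that group may thus be technical. The titles say leaves while the tissue field says culms. Summed over 20 genes for antenna proteins and the small Rubisco subunit, leaf marker RNA was 1444 to 50863 FPKM per library (fragments per kilobase of gene, scaled to the size of the library). Over 50 genes of secondary wall formation, as in culms, the sum was 33.9 to 499.5 FPKM. Over 18 knotted-1-like homeobox genes, taken as meristem markers, it was 211 to 566 FPKM. Those markers were higher in the variant in young leaves (263 to 356 against 211 to 238 FPKM) and immature leaves (544 to 566 against 355 to 431 FPKM). In mature leaves they overlapped. Their part in the values below was not tested.

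Total counts were 30268130 to 58374889 per library, and the lowest total was that of variant mature library 3. The trimmed mean of M values (TMM), which scales libraries so that most genes do not differ, gave factors of 0.75 to 0.859 in typical immature and mature libraries and 1.03 to 1.18 in all others. Without that scaling the median gene stood 0.43 higher on the log2 scale in the variant at both the immature and the mature stage. FPKM below are as deposited, without TMM. Log2 fold changes come from edgeR on TMM-scaled counts, so a difference in FPKM and a fold change can part where the scaling factors differ. In leaf extracts, fewer cells with active plastids and less RNA per cell cannot be told apart.

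**Figure D1:**
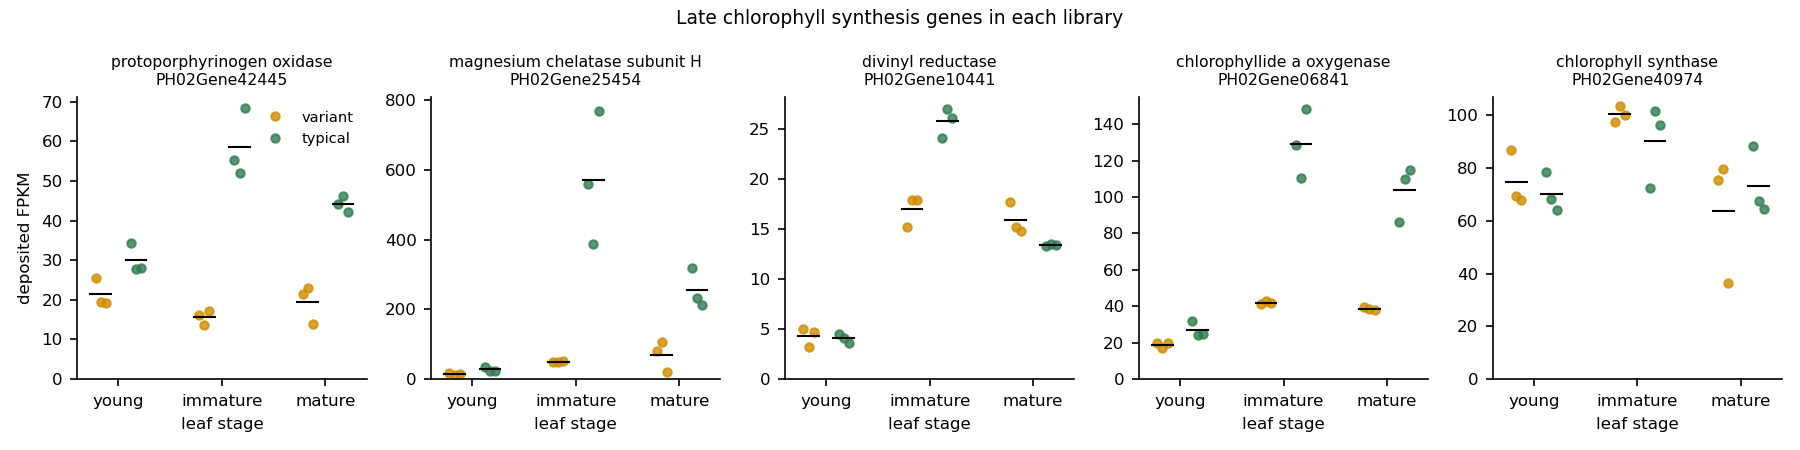
Deposited FPKM (vertical axis, from 0, a separate scale per gene) of the 5 genes by leaf stage in every library. Points are libraries, black bars the mean of 3. Typical immature libraries are the high points for subunit H, at 387 to 771 FPKM, whereas chlorophyll synthase stays between 36.5 and 103 FPKM in all 18 libraries.

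Protoporphyrinogen oxidase makes protoporphyrin IX, the last intermediate shared by chlorophyll and haem. The gene lies on scaffold 6 from 4886885 to 4891734, plus strand, as the table gives it. In young leaves it had 25.4, 19.5 and 19.2 FPKM in the variant and 34.3, 27.8 and 28.1 FPKM in the typical plant. In immature leaves it had 16.2, 13.7 and 17.1 FPKM in the variant, against 55.3, 52.1 and 68.4 FPKM in the typical plant. Every variant library lay below every typical library of its stage, most widely at the immature stage. In mature leaves it had 21.4, 22.9 and 13.9 FPKM in the variant and 44.1, 46.2 and 42.2 FPKM in the typical plant. Over the 3 stages the level lay between 13.7 and 25.4 FPKM in the variant and between 27.8 and 68.4 FPKM in the typical plant.

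Magnesium chelatase subunit H is the large, porphyrin-binding subunit of the enzyme that commits protoporphyrin IX to chlorophyll. It lies on scaffold 4 from 4371725 to 4377552, plus strand. In young leaves it had 17.7, 11.4 and 14.3 FPKM in the variant and 36.1, 24.5 and 23.9 FPKM in the typical plant. In immature leaves it had 48.0, 49.2 and 50.9 FPKM in the variant, against 559, 387 and 771 FPKM in the typical plant. The typical immature libraries held the highest values of any of the 5 genes in any library, and they spread more widely than the 3 variant ones. In mature leaves it had 81.5, 105 and 19.5 FPKM in the variant and 319.7, 232 and 213 FPKM in the typical plant. Variant mature library 3 was low, at 0.209 of the mean of libraries 1 and 2 of its group, so the mean of 68.7 ± 44.2 FPKM (SD, n = 3) describes none of them well.

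Divinyl reductase reduces a vinyl group to give the monovinyl forms of the pigment. It lies on scaffold 15 from 41629959 to 41632236, minus strand. In young leaves it had 4.97, 3.26 and 4.75 FPKM in the variant and 4.55, 4.07 and 3.6 FPKM in the typical plant. In immature leaves it had 15.2, 17.9 and 18 FPKM in the variant, against 24.2, 27.0 and 26.2 FPKM in the typical plant. The plants overlapped when young and were apart when immature. In mature leaves it had 17.7, 15.2 and 14.9 FPKM in the variant and 13.3, 13.6 and 13.4 FPKM in the typical plant. Here the variant libraries lay above the typical ones in FPKM, but the groups overlapped once counts were scaled by TMM.

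Chlorophyllide a oxygenase converts the a form of the pigment to the b form, which is found in the antenna. It lies on scaffold 14 from 86718790 to 86722941, plus strand. In young leaves it had 19.6, 17.2 and 19.9 FPKM in the variant and 31.7, 24.3 and 24.9 FPKM in the typical plant. In immature leaves it had 41.5, 42.8 and 41.6 FPKM in the variant, against 128, 110.4 and 148 FPKM in the typical plant. In mature leaves it had 39.7, 38.7 and 37.7 FPKM in the variant and 86.3, 110.0 and 115 FPKM in the typical plant. No variant library reached a typical one of the same stage, and the variant immature and mature libraries kept within 37.7 to 42.8 FPKM. Variant mature library 3, low for subunit H, was at 0.961 of the other libraries' mean here and at 0.902 for divinyl reductase.

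Chlorophyll synthase attaches the phytol tail, the last step. It lies on scaffold 9 from 30249090 to 30255251, plus strand. In young leaves it had 86.9, 69.3 and 67.7 FPKM in the variant and 78.6, 68.2 and 64.2 FPKM in the typical plant. In immature leaves it had 97.5, 103 and 100.02 FPKM in the variant and 72.4, 101 and 96.2 FPKM in the typical plant. In mature leaves it had 75.4, 79.8 and 36.5 FPKM in the variant and 88.2, 67.3 and 64.3 FPKM in the typical plant. The plants overlapped at all 3 stages, and the lowest value of all was again that of variant mature library 3, at 0.470 of the mean of libraries 1 and 2.

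FPKM is scaled by gene length, so levels can be ranked between genes. Chlorophyll synthase ranked first of the 5 in young leaves of both plants, at 74.6 ± 10.6 FPKM in the variant and 70.3 ± 7.44 FPKM in the typical plant (SD, n = 3 each), above every library of the next gene. In immature leaves it stayed first in the variant, at 100.3 ± 2.94 FPKM, and was the third in the typical plant, at 90.0 ± 15.5 FPKM. Subunit H was first in typical immature leaves, at 572 ± 192 FPKM, followed by chlorophyllide a oxygenase at 129 ± 18.9 FPKM, with no overlap between neighbours in that order. In variant immature leaves protoporphyrinogen oxidase was last, at 15.7 ± 1.75 FPKM, overlapping divinyl reductase at 17 ± 1.58 FPKM. Divinyl reductase was lowest in the other groups, at 4.33 ± 0.931 FPKM in variant young, 4.07 ± 0.478 FPKM in typical young, 25.8 ± 1.45 FPKM in typical immature, 15.9 ± 1.58 FPKM in variant mature and 13.4 ± 0.131 FPKM in typical mature leaves. In variant mature leaves it overlapped protoporphyrinogen oxidase, and subunit H overlapped chlorophyll synthase.

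The change with stage within a plant was not what the genes were chosen for, but it uses the same libraries. Its p-values for members are thus not independent of that choice. Where the change differs between the plants, it restates the plant differences the genes were named from. Each change was tested with edgeR's quasi-likelihood test over all 37595 genes. In typical plants all 5 genes rose in immature over young leaves. Subunit H rose by 4.86 ± 0.53 on the log2 scale (SE; 29.0-fold, edgeR adjusted p = 1.53e-06). Divinyl reductase rose by 3.17 ± 0.17 (adjusted p = 3.14e-09), chlorophyllide a oxygenase by 2.77 ± 0.16 (3.63e-09) and protoporphyrinogen oxidase by 1.47 ± 0.20 (1.77e-05). Chlorophyll synthase rose by 0.87 ± 0.26 (0.00981), a call that depended on the scaling: with library totals alone it was 0.36 (adjusted p = 0.203), and on deposited FPKM the groups overlapped. Among all genes tested, 29.2% rose and 30.4% fell in this comparison.

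In the variant 3 of the 5 rose in immature over young leaves, where 27.0% of all genes rose and 28.6% fell. Divinyl reductase rose by 2.08 ± 0.17 on the log2 scale (4.22-fold, edgeR adjusted p = 1.81e-07), subunit H by 1.87 ± 0.46 (0.00311, or 0.0519 with the closest libraries summed) and chlorophyllide a oxygenase by 1.26 ± 0.15 (5.94e-06). Chlorophyll synthase was at 0.53 ± 0.26 (0.0973) and protoporphyrinogen oxidase at -0.34 ± 0.20 (0.16), neither passing. Both calls depended on the fit. The synthase passed without variant mature library 3 (adjusted p = 0.0215) and with only the groups compared in the fit (0.0115). The oxidase passed, as lower, with limma on log2(FPKM + 0.1) and log2(FPKM + 1) (0.0484 and 0.0487). For the oxidase all 3 immature libraries of the variant lay below its 3 young ones, whereas in typical plants all 3 immature libraries lay above the young. Beside these changes, the summed leaf markers were 6028 to 6096 FPKM in variant immature leaves and 1444 to 2644 FPKM in variant young leaves, and 46593 to 50863 FPKM in typical immature leaves and 2746 to 4128 FPKM in typical young leaves. Whether the members changed apart from those markers was not tested.

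**Figure D2:**
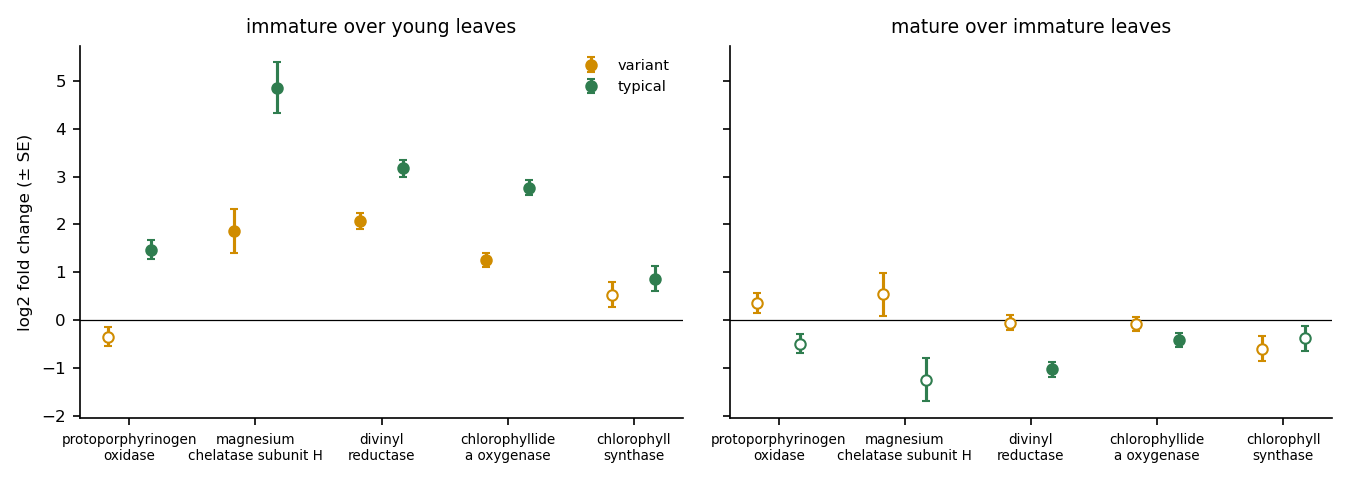
Log2 fold change with SE (vertical axis) of each gene between successive stages, in variant and typical plants. Filled points passed edgeR's adjusted p of 0.05, open points did not. In immature over young leaves the typical point lies above the variant point for each gene, and in mature over immature leaves the 2 filled points, divinyl reductase and chlorophyllide a oxygenase, are both typical and below 0.

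In mature over immature leaves 2 of the 5 fell in typical plants, where 13.2% of all genes rose and 16.2% fell. Divinyl reductase fell by 1.03 ± 0.16 on the log2 scale (SE; edgeR adjusted p = 0.000296), with all mature libraries below all immature ones. Chlorophyllide a oxygenase was at -0.41 ± 0.15 (adjusted p = 0.0465), just inside the threshold. It missed the threshold in 15 of the 18 fits with a library left out (0.0505 to 0.180), most of them libraries outside this comparison, and in 7 other alternatives (0.0538 to 0.154). Subunit H was just outside it, at -1.24 ± 0.45 (0.0512). Without variant mature library 3, a library outside this comparison that feeds the shared estimate of spread, its adjusted p was 0.00289. Subunit H also passed with DESeq2 (0.0173), with only the groups compared (0.0273) and with size factors by relative log expression (0.0480). The same held without typical immature library 2 (0.0416), typical mature library 1 (0.0464) or variant mature library 2 (0.0374). Protoporphyrinogen oxidase was at -0.49 ± 0.20 (0.078) and chlorophyll synthase at -0.37 ± 0.26 (0.304). The oxidase passed, as lower, with DESeq2 (0.0475) and without variant mature library 3 (0.0267). The leaf markers summed to 21451 to 22662 FPKM in typical mature leaves, against 46593 to 50863 FPKM in typical immature leaves, and their part in these changes was not tested.

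None of the 5 was called in mature over immature leaves of the variant by edgeR, where 15.8% of all genes rose and 11.6% fell. At an unadjusted p under 0.05 there was 1, lower, while limma on log2(FPKM + 1) called 1 and DESeq2 0 after adjustment. Subunit H was at 0.54 ± 0.45 on the log2 scale, protoporphyrinogen oxidase at 0.36 ± 0.20 and chlorophyll synthase at -0.60 ± 0.26 (SE; edgeR adjusted p = 0.397, 0.201 and 0.101). Divinyl reductase, at -0.05 ± 0.16, and chlorophyllide a oxygenase, at -0.07 ± 0.15, had intervals close around 0. Variant mature library 3 decides part of this: without it, subunit H rose by 0.98 (adjusted p = 0.0228) and protoporphyrinogen oxidase by 0.56 (0.0270). In that library the leaf markers summed to 2662 FPKM, against 13704 and 14843 FPKM in libraries 1 and 2, and its part in these values was not tested beyond leaving it out. Chlorophyll synthase passed when libraries were scaled by their totals alone (-0.68, adjusted p = 0.0464). With limma on log2(FPKM + 0.1) and log2(FPKM + 1) it passed as well (0.0285 and 0.0276). Without variant mature library 3 it stood at -0.31 and did not pass (0.274).

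Over the whole span, mature against young leaves, subunit H, divinyl reductase and chlorophyllide a oxygenase were higher in both plants. In the variant they rose by 2.41 ± 0.47, 2.03 ± 0.17 and 1.18 ± 0.15 on the log2 scale (SE; edgeR adjusted p = 0.000484, 1.36e-07 and 7.77e-06), and in the typical plant by 3.62 ± 0.50, 2.14 ± 0.17 and 2.36 ± 0.15 (1.27e-05, 3.96e-08 and 6.31e-09). Protoporphyrinogen oxidase was at 0.01 ± 0.20 in the variant (adjusted p = 0.963) and rose by 0.98 ± 0.20 in the typical plant (0.000548). Chlorophyll synthase passed in neither, at -0.07 ± 0.26 in the variant (0.84) and 0.49 ± 0.26 in the typical plant (0.107), where it passed without variant mature library 3 (0.0260). Of all genes tested, 28.4% rose and 28.6% fell in the variant, and 31.5% rose and 34.5% fell in the typical plant.

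Between the plants at the young stage none of the 5 was called by edgeR, and of all genes 0.149% were called higher and 0.0213% lower in the variant. DESeq2 called 1 of the 5. As the genes were named from the plant differences, nothing is read from these counts. Chlorophyllide a oxygenase was at -0.56 ± 0.15, protoporphyrinogen oxidase at -0.54 ± 0.20 and subunit H at -1.0 ± 0.45 on the log2 scale (SE), each with all 3 variant libraries below all 3 typical ones. Divinyl reductase and chlorophyll synthase were both at 0.04, with SE of 0.16 and 0.26 and overlapping libraries. The young leaf markers were likewise lower in the variant, at 1444 to 2644 FPKM against 2746 to 4128 FPKM in typical leaves.

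At the immature stage 4 of the 5 were called lower in the variant, where 23.1% of all genes were called lower and 21.7% higher. Since the genes were named from these differences, nothing is read from that count. The order of size was subunit H at -3.99 ± 0.51 on the log2 scale (15.9-fold lower in the variant), protoporphyrinogen oxidase at -2.35 ± 0.21 (5.11-fold), chlorophyllide a oxygenase at -2.07 ± 0.15 (4.21-fold) and divinyl reductase at -1.05 ± 0.16 (2.08-fold). Chlorophyll synthase was at -0.30 ± 0.26. Its sign depended on the scaling, with 0.22 when libraries were scaled by totals alone and 0.17 on deposited FPKM, while the signs of the other members held under each scaling tried.

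At the mature stage 3 of the 5 were called lower in the variant, where 9.65% of all genes were lower and 14.9% higher, and again nothing is read from the count. Subunit H was at -2.21 ± 0.47 on the log2 scale, chlorophyllide a oxygenase at -1.74 ± 0.15 and protoporphyrinogen oxidase at -1.50 ± 0.20. Without variant mature library 3 they stood at -1.76, -1.70 and -1.30. Chlorophyll synthase was at -0.52 ± 0.26 with that library and at -0.23 without it. Divinyl reductase was at -0.08 ± 0.16, and at 0.27 with library totals alone. The leaf markers were 2662 to 14843 FPKM in variant mature leaves and 21451 to 22662 FPKM in typical ones, and their part was not tested.

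**Figure D3:**
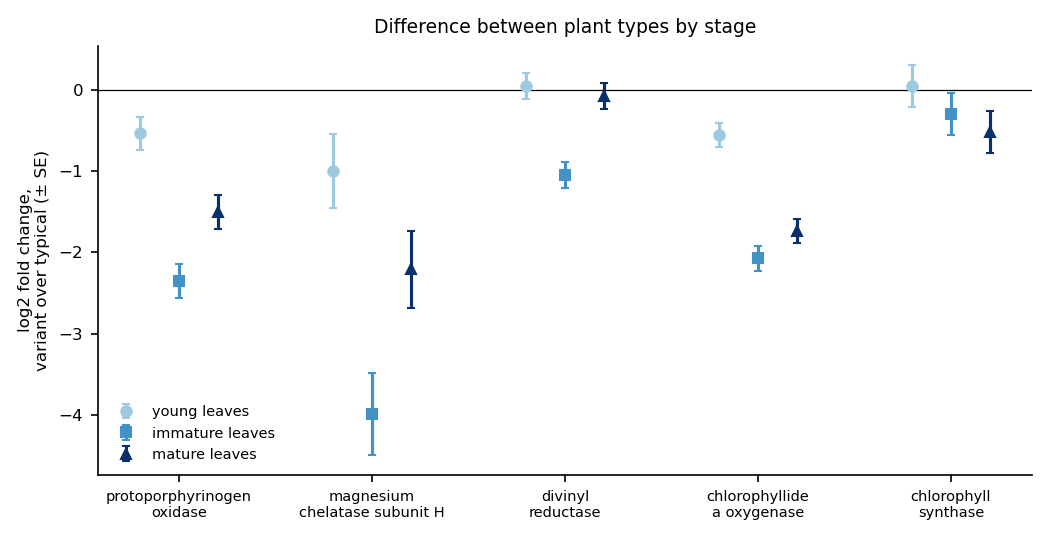
Log2 fold change with SE of the variant over the typical plant (vertical axis) for each gene in young, immature and mature leaves. The immature difference is the lowest point for the first 4 genes, from -3.99 for subunit H to -1.05 for divinyl reductase, and the 3 points of chlorophyll synthase lie between -0.52 and 0.04.

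The plant difference itself shifted with stage by different amounts. From the young to the immature stage it moved by -2.99 ± 0.65 on the log2 scale for subunit H, by -1.82 ± 0.29 for protoporphyrinogen oxidase, by -1.52 ± 0.21 for chlorophyllide a oxygenase and by -1.09 ± 0.23 for divinyl reductase (SE). For chlorophyll synthase the shift was -0.34 ± 0.37. From the immature to the mature stage it moved back by 1.78 ± 0.64 for subunit H, 0.98 ± 0.23 for divinyl reductase and 0.85 ± 0.28 for protoporphyrinogen oxidase. Chlorophyllide a oxygenase moved back by 0.34 ± 0.21, and chlorophyll synthase moved the other way, by -0.22 ± 0.37. Set against the young stage, divinyl reductase had thus returned to within -0.12 ± 0.23 in mature leaves, while chlorophyllide a oxygenase stood at -1.18 ± 0.21. Subunit H stood at -1.21 ± 0.64, protoporphyrinogen oxidase at -0.97 ± 0.28 and chlorophyll synthase at -0.56 ± 0.37. All values for mature leaves here include variant mature library 3.

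Because library scaling moves all genes of a library alike, the ratio of 2 genes within a library is free of it. Relative to chlorophyll synthase, subunit H stood at 0.492, 0.476 and 0.509 in variant immature libraries and at 7.72, 3.81 and 8.01 in typical immature ones. Protoporphyrinogen oxidase stood at 0.167, 0.133 and 0.171 in variant immature libraries, against 0.763, 0.513 and 0.711 in typical ones. Chlorophyllide a oxygenase stood at 0.425, 0.414 and 0.416 in variant immature libraries and at 1.77, 1.09 and 1.54 in typical ones. Thus in typical immature leaves both subunit H and the oxygenase exceeded the synthase in every library, and in variant immature leaves neither did in any. Divinyl reductase averaged 0.169 ± 0.0123 of the synthase in variant immature leaves and 0.291 ± 0.0375 in typical ones (SD, n = 3 each), with no overlap.

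In young leaves the ratios to the synthase were also lower in the variant for 3 genes. Protoporphyrinogen oxidase averaged 0.286 ± 0.00639 in the variant and 0.427 ± 0.0169 in the typical plant, subunit H 0.193 ± 0.0256 and 0.397 ± 0.0542, and chlorophyllide a oxygenase 0.256 ± 0.0348 and 0.382 ± 0.0238 (SD, n = 3 each), none with overlapping libraries. Divinyl reductase averaged 0.0581 ± 0.0116 in the variant and 0.0579 ± 0.00181 in the typical plant and overlapped. In mature leaves subunit H had ratios of 1.08, 1.32 and 0.536 in the variant and 3.63, 3.44 and 3.31 in the typical plant. Chlorophyllide a oxygenase, at 0.527, 0.486 and 1.03 in variant mature leaves against 0.979, 1.63 and 1.79 in typical ones, overlapped through variant mature library 3, in which the synthase was low.

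**Figure D4:**
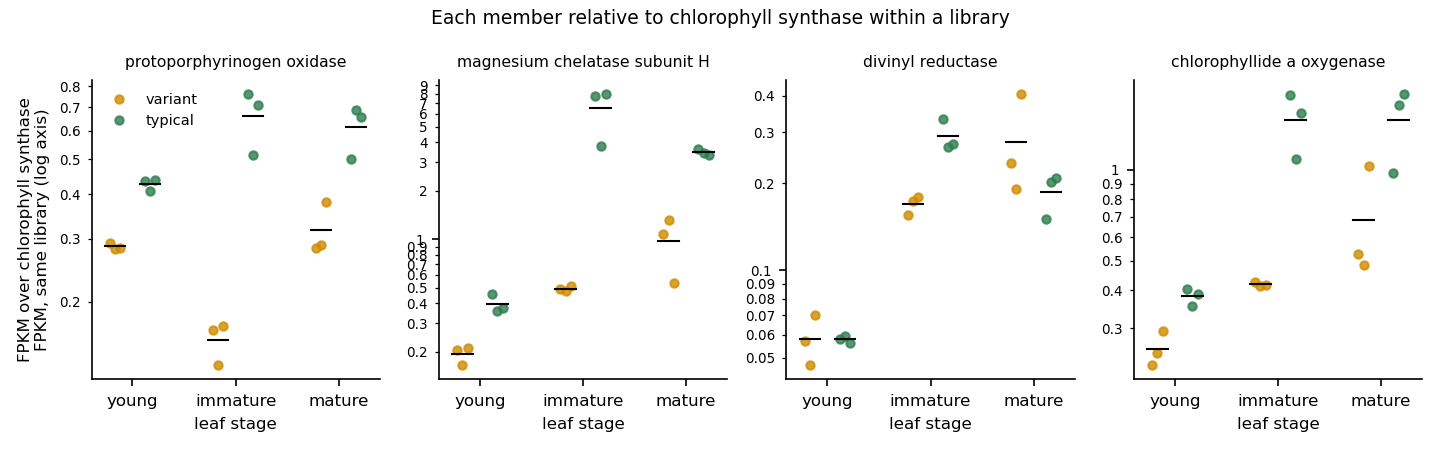
FPKM of each gene divided by chlorophyll synthase FPKM of the same library (vertical log axis, a separate scale per gene) by leaf stage. Points are libraries, black bars the mean of 3. The immature stage separates the plants for all 4 genes, and for subunit H the ratio is 0.476 to 0.509 in the variant and 3.81 to 8.01 in the typical plant.

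The members differ in how much of their step they stand for. By the KEGG orthology (KO) number in the table, chlorophyll synthase was the single gene of its step, and chlorophyllide a oxygenase held on average at least 99.95% of the FPKM of its pair of genes in every group. The table has 4 genes for subunit H, of which PH02Gene25454 held 66.4% ± 1.08 in variant immature and 75.3% ± 1.22 in typical immature leaves (SD, n = 3 each). Its close copy PH02Gene25100, with the same description, had 16.5 ± 2.00 FPKM in variant immature leaves and 179 ± 51.1 FPKM in typical ones, a log2 fold change of -3.89 ± 0.55 (edgeR adjusted p = 5.83e-05). Reads of such copies could be split between them by the authors' counting, so each copy's level is uncertain. The copy's difference may thus repeat that of the member and is no separate evidence for it. A further subunit H gene, PH02Gene24514, was at 8.49 ± 1.18 FPKM in variant immature and 5.81 ± 1.33 FPKM in typical immature leaves and did not pass (0.09 ± 0.21, adjusted p = 0.753).

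Protoporphyrinogen oxidase shares its KO number with 3 other genes. The member held 38.1% ± 5.06 of their summed FPKM in variant immature leaves and 77.8% ± 2.73 in typical ones (SD, n = 3 each). The gene described as mitochondrial, PH02Gene03218, had 15.9 ± 1.43 FPKM in variant immature leaves and 11.5 ± 1.04 FPKM in typical ones, with a log2 fold change of 0.02 ± 0.18 (edgeR adjusted p = 0.976). The gene described as chloroplastic or mitochondrial, PH02Gene11350, had 9.71 ± 1.49 FPKM in variant immature and 5.0 ± 0.524 FPKM in typical immature leaves (0.50 ± 0.21, adjusted p = 0.058). Divinyl reductase was the smaller of 2 genes with its KO number, at 25.4% ± 0.973 of their FPKM in variant immature and 19.7% ± 4.45 in typical immature leaves. The other, PH02Gene49123, is described as a ycf39 protein and was at -1.58 ± 0.26 between the plants (adjusted p = 0.000178).

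Other genes of the branch were found by searching descriptions for its enzymes, which gave 16 genes beside the members, 14 of them tested. In immature leaves 6 of the 14 were lower in the variant and 0 higher, with a median log2 fold change of -1.27 beside -0.01 over all genes tested, of which 23.1% were lower and 21.7% higher. DESeq2 called 6 lower and 1 higher, and limma on log2(FPKM + 1) called 7 lower and 3 higher, so the absence of higher calls holds for edgeR with TMM alone among these fits. In mature leaves 3 were lower and 0 higher, with a median of -0.86 beside 0.09, where 9.65% of all genes were lower and 14.9% higher. In young leaves edgeR, DESeq2 and limma each called 0, with 2 lower at an unadjusted edgeR p under 0.05 and a median of -0.28. In immature over young leaves 2 of the 14 rose and 2 fell in the variant, beside 27.0% and 28.6% of all genes. In the typical plant 7 rose and 2 fell, beside 29.2% and 30.4%.

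The Mg-protoporphyrin monomethyl ester cyclase (PH02Gene16028), which closes the fifth ring, had the highest level of the branch, with 222 ± 7.79 FPKM in variant immature and 999 ± 120.2 FPKM in typical immature leaves (SD, n = 3 each). Its log2 fold change was -2.63 ± 0.53 (edgeR adjusted p = 0.00096). Protochlorophyllide reductase (PH02Gene14847), the light-driven step, had 89.8 ± 4.18 FPKM in variant immature and 351 ± 8.40 FPKM in typical immature leaves (-2.42 ± 0.51, adjusted p = 0.00147). In variant immature over young leaves neither passed, at 0.63 ± 0.50 (adjusted p = 0.298) for the cyclase and -0.24 ± 0.49 (0.696) for this reductase gene. Of other genes with the reductase's KO number, PH02Gene43754 at -3.20 ± 0.89 (0.00668) and PH02Gene00303 at -2.12 ± 0.85 (0.0448) passed there, as lower. PH02Gene35988 did not, at -0.64 ± 0.48 (0.269). Between the plants in immature leaves, PH02Gene00303 was at -4.24 ± 0.91 (edgeR adjusted p = 0.00167) and PH02Gene35988 at -2.94 ± 0.50 (0.000285). PH02Gene43754 did not pass between them, at -2.13 ± 0.85 (0.0536). A pair of tetrapyrrole-binding proteins, the kind that stimulates magnesium chelatase, was also lower in variant than in typical immature leaves. PH02Gene22997 was at -2.36 ± 0.39 (adjusted p = 0.000228) and PH02Gene30190 at -1.76 ± 0.26 (8.65e-05).

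The methyltransferase between chelatase and cyclase (PH02Gene13023) did not pass, with 57.0 ± 7.35 FPKM in variant immature and 71.5 ± 5.81 FPKM in typical immature leaves and a log2 fold change of -0.78 ± 0.50 (edgeR adjusted p = 0.215). By KO number, a search added after the values were seen, 20 other genes were found, 18 of them tested, and in immature leaves 8 were lower and 1 higher in the variant. That search adds subunit I, a partner of subunit H, while subunit D was already among the genes found by description. Subunit I (PH02Gene41624), an ATPase of the chelatase, had 67.5 ± 2.25 FPKM in variant immature and 95.7 ± 9.36 FPKM in typical immature leaves (-0.96 ± 0.36, adjusted p = 0.0431). Subunit D (PH02Gene29183), its other partner, had 21.4 ± 0.767 FPKM in variant immature and 16.4 ± 6.10 FPKM in typical immature leaves, which overlapped (-0.08 ± 0.44, adjusted p = 0.919). Geranylgeranyl reductase (PH02Gene01049), which makes the phytol donor that chlorophyll synthase uses, had 125 ± 3.33 FPKM in variant immature and 199.5 ± 7.20 FPKM in typical immature leaves (-1.12 ± 0.33, adjusted p = 0.0117).

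**Figure D5:**
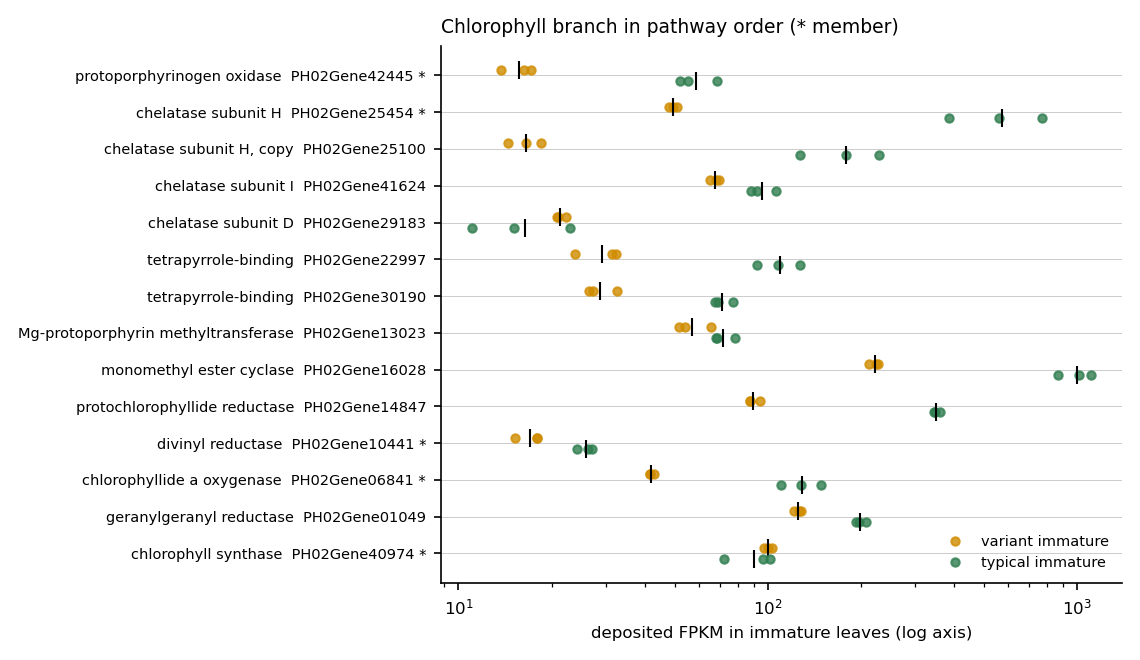
Deposited FPKM (horizontal log axis) in immature leaves of genes along the chlorophyll branch, from protoporphyrinogen oxidase at the top to chlorophyll synthase at the bottom, with the 5 described genes starred. Points are libraries and vertical ticks group means. The plants do not overlap for most genes shown, and overlap for subunit D and chlorophyll synthase. The genes shown were set by hand, and other copies of some steps are left out.

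The genes with the profiles most like each member over the 18 libraries were found by the smallest root mean square difference of mean-centred log2 TMM-scaled CPM, among 36811 tested genes with a description. For protoporphyrinogen oxidase the nearest was a chloroplastic triosephosphate isomerase (PH02Gene05123, 0.23), followed by PH02Gene05757 and PH02Gene10224. For subunit H the 3 nearest were a chlorophyll a/b binding protein (PH02Gene46210, 0.38), a UPF0603 protein (PH02Gene49811, 0.39) and a chloroplastic phosphoglycerate kinase (PH02Gene42166, 0.39). For chlorophyllide a oxygenase they were a pair of ABC1K8-type kinase genes (PH02Gene43059, 0.25, and PH02Gene24987, 0.29) and the chaperone ClpD2 (PH02Gene49801, 0.30). Divinyl reductase was nearest to an NRT1/PTR family 4.6-like transporter gene (PH02Gene43503, 0.23), then to PH02Gene13383 and PH02Gene41811. Chlorophyll synthase was nearest to PH02Gene16064 (0.15), PH02Gene16127 (0.17) and a lumenal subunit of the photosynthetic NDH complex (PH02Gene07419, 0.17).

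The members were not among each other's nearest genes. The closest pair was divinyl reductase and chlorophyllide a oxygenase, 0.65 apart on this scale, and the farthest was subunit H and chlorophyll synthase, 1.79 apart. Protoporphyrinogen oxidase and chlorophyllide a oxygenase were 0.68 apart. The libraries share depth and scaling across genes, so these distances describe the 18 libraries only.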

How the data were processed

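The authors deposited a single table with, per the file headers, FPKM and a count for each of 42520 genes and 18 libraries. The estimated counts are whole numbers as deposited. Salmon, cutadapt and FastQC are named in the submitters' processing notes, with no versions. The genome build is not given in the sources used here, nor is the annotation. Per the labels' protocols, cDNA of polyadenylated RNA was amplified by PCR, with no strand mark and no molecular identifiers described, so an overlapping neighbour's reads cannot be told apart and counting error is understated.

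Counts were fitted with edgeR 4.0.16 in R 4.3.3 (quasi-likelihood, TMM, 6 group means over all 18 libraries, 12 residual degrees of freedom), after filterByExpr with a minimum count of 10 and total of 15. Calls are at 0.05 after Benjamini-Hochberg adjustment over 37595 genes. Alternatives were DESeq2 1.42.0, limma 3.58.1 on log2(FPKM + 1 or 0.1), other scalings, no filter, only the groups compared, a replicate block, and each library left out. The fit was run on simulated data with few genes changed, in variant immature libraries alone and evenly in both directions. That setting does not test how the fit deals with the many changes and the scaling differences of these libraries. The members and gene lists were chosen with earlier results of these data known. Beside all 5 members, the text names the 6 other branch genes with the highest mean FPKM found by description, and for each member the 3 described genes most like it. Copies with a shared KO number, both partner subunits of the chelatase and the geranylgeranyl reductase were named after their values were seen.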

Additional observations from a re-analysis of the deposited data

Results flagged for a closer look

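Protoporphyrinogen oxidase moved in opposite directions between young and immature leaves of the plants. Its log2 fold change was -0.34 in the variant, where all 3 immature libraries lay below the 3 young ones, and 1.47 in the typical plant, where all 3 immature libraries lay above the young ones. The difference between these changes was not tested, since the gene was named from the plant comparisons it is made of, and the variant's own change did not pass in edgeR (adjusted p = 0.16) but did with limma on log2(FPKM + 0.1) and log2(FPKM + 1) (adjusted p = 0.0484 and 0.0487).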

How the results depend on the processing

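No log2 fold change of a called member changed sign under any alternative, and of 1215 recomputed member values 1146 kept their side of the threshold or their size. Calls that changed lie mostly between immature and mature leaves, and also concern chlorophyll synthase, protoporphyrinogen oxidase and subunit H in immature against young leaves, given with their results. For chlorophyll synthase in typical immature against young leaves the adjusted p was 0.203 with library totals alone, 0.217 and 0.218 with limma at the lower and higher pseudocount, and 0.0752 with the closest libraries summed. Depth did not limit the members, the lowest count of any being 454. The planned sum of near-alike libraries was not run, since no pair of libraries agreed within sampling noise (18 pairs, mean chi-square per gene 9.34 to 268). In its place, chosen after seeing the data, the 5 closest pairs, under 15, were summed. Among them were all 3 variant immature pairs, which made that group 1 library whose calls rest on the spread of others. That leaves fewer libraries and gave 11896 genes called in variant immature against young (20906 in the reported fit), 855 in variant mature against immature (10275), 6478 in typical mature against immature (11058), 0 between young plants (64), 6923 between immature plants (16868) and 3928 between mature plants (9224). Other branch genes called then numbered 2 for variant immature against young, 0 for variant mature against immature, 1 for typical mature against immature, 3 for variant mature against young, 4 for typical mature against young and 0 between mature plants. Members called in typical mature against immature were 1.

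With only the groups compared in the fit, 7210 genes were called in typical mature against immature and 2641 between mature plants, and other branch genes called were 8 for variant immature against young, 0 for variant mature against immature, 2 for variant mature against young and 0 between mature plants. Genes called between young plants were 501 with DESeq2, 208 and 254 with limma on log2(FPKM + 0.1) and log2(FPKM + 1), and 5 to 159 with a library left out, the highest without variant mature 3. DESeq2 called 1 member between young plants, 4 members in typical mature against immature and 5 other branch genes between mature plants. Members called in variant mature against immature, 0 as reported, were 1 with library totals alone and with limma at either pseudocount, and 0 to 2 with a library left out. Members called in typical mature against immature, 2 as reported, were 1 with library totals alone, with limma at either pseudocount and with no filter, and 1 to 4 with a library left out. Limma called 3 other branch genes there and 10 between immature plants, 7 lower and 3 higher. For variant mature against young, 3 other branch genes were called with library totals alone and with size factors by relative log expression. The KO list gave 5 between mature plants. With a library left out, other branch genes called ranged from 3 to 8 (variant immature against young), 0 to 5 (variant mature against immature), 1 to 9 (typical mature against immature), 3 to 9 (variant mature against young) and 3 to 6 (between mature plants). The cause of these shifts was not tested.

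The groups share replicate numbers 1 to 3, and little sign was seen that the numbers pair the libraries. Over 45 same-numbered pairs the correlation of deviations from the group means was -0.0985 to 0.155, with a median of 0.00378. It was over 0.1 in 3 pairs, and deviations from means of 3 libraries cannot exclude a weak pairing. With a replicate block, 38 genes were called between young plants, 1 member in typical mature against immature, and 1 other branch gene in variant mature against immature.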

Other observations

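Genes upstream of the 5 members, from glutamyl-tRNA reductase to coproporphyrinogen oxidase, were also found by description. Of 17 tested, 8 were lower and 1 was higher in variant than in typical immature leaves, with a median log2 fold change of -1.01 beside -0.01 over all genes tested, of which 23.1% were lower and 21.7% higher. In mature leaves 5 were lower and 0 higher, beside 9.65% and 14.9% of all genes. Glutamyl-tRNA reductase is the entry to the pathway. Its gene PH02Gene14878 had 40.0 ± 0.942 FPKM in variant immature and 194 ± 47.8 FPKM in typical immature leaves (SD, n = 3 each). PH02Gene41172 had 25.4 ± 2.24 FPKM and 230.3 ± 67.7 FPKM in the same groups. A further gene for it, PH02Gene04482, had 0.277 ± 0.249 FPKM and 0.526 ± 0.471 FPKM and did not pass between them (edgeR adjusted p = 0.350). Of 6 genes of the haem and bilin branch, which also starts from the product of protoporphyrinogen oxidase, 2 were lower and 1 higher in variant immature leaves. Of 3 genes that turn chlorophyll b back to a, 1 was higher and 1 lower. Both counts are near the shares over all genes and so are no result about these groups. These genes were named after their values were seen.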
